A study of Mus musculus with 185 samples.

Results

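Polg and 8 further nuclear genes that maintain mitochondrial DNA (mtDNA) were followed in single Langerhans cells (LCs) of mouse epidermis. They are 9 of the 45661 genes listed in the count table: Polg, Polg2, Twnk, Ssbp1, Mgme1, Polrmt, Tfam, Dguok and Tk2. The genes were chosen by function around Polg, and Polg itself was chosen because its reads differed between LCs of different origin in these same cells, so the values of Polg by origin are a description and not a finding of a test. Polg was read in 48.1% of embryo-derived LCs (eLCs) and in 7.77% of monocyte-derived LCs (moLCs), and its summed level was 17.2-fold lower in moLCs. Of the other 8 genes, Twnk and Polrmt were more than 2-fold higher in moLCs on both plates, each with reads in at most 10 cells of an origin. How often other genes read in so few cells differed as much was not counted, so this is no result about the 9 genes as a family.

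The cells came from bone marrow chimeras (BMC). The hosts were lethally irradiated CD45.1 Cd207DTR mice on the B6 background, in which the LC gene Cd207 drives the receptor for diphtheria toxin (DT), and the donor marrow was CD45.2 and wild type. A low dose of 5 ng DT per gram of body weight was given to all mice, and epidermal LCs were index sorted 2 months later as lineage-negative CD11c+ CD11b+ CD24+ MHCII+ CD326+ cells. CD45.1 cells of the host are the eLCs and CD45.2 cells of the donor marrow are the moLCs. The origins therefore also differ in the Cd207DTR allele, in the congenic background and in having been irradiated, and these cannot be told apart from origin. The age of the mice and the animal each cell came from are not given, so each origin counts as 1 sample, and no test between origins was made.

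A Smart-Seq library was made from every cell, on 2 plates that each held both origins. Cells with more than 5% of reads on mt- genes, 3 in number, were left out, and 182 remained. They were 79 eLCs (29 on plate 1 and 50 on plate 2), with moLCs as the rest (67 and 36). Cells had 432614 to 4525429 reads in genes. Reads of all cells of the same origin were added up, levels are given as counts per 1000000 reads (CPM) of these sums, and ratios as log2 of moLCs over eLCs. Intervals are at 95% and cover counting error only, since reads of a cell include PCR copies and cells of 1 sample are not replicates. Genes read in 25% or more of the cells of either origin are called widely read. There were 6522 such genes, and their median log2 ratio was -0.10.

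The cells had the markers of LCs. All 9 LC markers examined were widely read, and Epcam (CD326) had reads in 98.7% of eLCs and 99.03% of moLCs. Cd207 was at 2159 CPM in eLCs and 26238 CPM in moLCs. No keratinocyte, T cell, monocyte or melanocyte marker was widely read. Of 7 keratinocyte markers, Krt1, Krt15 and Dsp had no read, and the summed level of the 7 in a cell had a mean of 4.40 CPM in eLCs (0 to 95.3) and 26.99 CPM in moLCs (0 to 542). Of 6 T cell markers, Cd3e, Trdc and Thy1 had no read, and the means were 0.456 and 0.312 CPM. The 5 monocyte markers had means of 0.0112 and 0.175 CPM, with S100a8 at 0, and the 4 melanocyte markers of 0.0789 and 0.483 CPM. Among 4 markers of dermal DC1, Irf8 alone was widely read, in 67.1% of eLCs and 61.2% of moLCs.

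Mitochondria carry many copies of a small circular genome that encodes subunits of the respiratory chain together with the rRNAs and tRNAs to translate them. Every protein that copies and transcribes this genome is encoded in the nucleus. Polg is the catalytic subunit of the mtDNA polymerase and Polg2 its accessory subunit, Twnk (Twinkle) is the helicase that opens the fork, and Ssbp1 coats the single strands. Mgme1 is an exonuclease that trims DNA ends during replication. Polrmt is the mitochondrial RNA polymerase, which also makes primers, and Tfam packages mtDNA and activates its promoters. Dguok and Tk2 are the mitochondrial kinases that salvage purine and pyrimidine deoxynucleosides for its synthesis.

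The proximal promoters of these genes hold a common element, shown here because it is the sequence feature that most of the 9 genes have and that was not used to choose them. The 7-base core CCGGAAG of ETS-family factors, which include the GABP complex, was searched on both strands from 250 bases before to 50 bases after each start site in RefSeq promoters of GRCm38.p6. It was found in 7 of 9 genes, Polg among them, and not found in Dguok and Mgme1. Of all 27025 promoters, 9.93% held it, and of the 4718 promoters of widely read genes, 25.3% held it. In the windows below, written 5′ to 3′ on the strand of the gene, capitals mark the core or its reverse complement.
Polg (chr7:79466295-79466321, minus strand): aggacctcacCCGGAAGtccctctgca
Polg2 (chr11:106779550-106779576, minus strand): gggtgacgctCTTCCGGgggcgtggtc
Twnk (chr19:45006482-45006508, plus strand): gagagttttgCTTCCGGagtcaccgcg
Ssbp1 (chr6:40471411-40471437, plus strand): gctccgtgcgCCGGAAGcgagccgctg
Polrmt (chr10:79746608-79746634, minus strand): cctaagagcgCTTCCGGcagtcgcaga
Tfam (chr10:71238075-71238101, minus strand): ctgccgcggaCCGGAAGtccgggcttc
Tk2 (chr8:104248554-104248580, minus strand): ccaggacgcaCCGGAAGgaagtaggac
The cores of these windows began 12 to 66 bases before the RefSeq start site. Twnk held a further match 110 bases before its RefSeq start. The gene spans given below are those of GENCODE, whose starts differ, and the windows of Polg, Twnk, Ssbp1 and Tfam fall inside them. The genes with the core include Polg, at a log2 ratio of -4.10, and Polrmt, at 2.95. A match is a run of letters and not evidence of binding. The only other motif searched, the 10-base consensus of NRF1 with 1 free base, was found on either strand in 1 of 9 genes, Polrmt, against 5.19% of all promoters and 14.2% of those of widely read genes.

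Polg lies on the minus strand of chromosome 7 at 79446231 to 79466362 (GRCm38). Of 79 eLCs, 38 had a Polg read, a share of 48.1% (36.7 to 59.6). Among these 38 cells the lowest count was 1 read, the median 69.5 and the highest 803. Of the moLCs, 8 had a Polg read, a share of 7.77% (3.41 to 14.7), with a lowest count of 3, a median of 85.5 and a highest of 180 reads. The origins thus differed in how many cells had Polg reads. The counts of the cells with reads overlapped, but they reached 803 reads in eLCs and only 180 in moLCs. In CPM, the median of the cells with reads was 35.3 in eLCs and 27.1 in moLCs, and the highest cell was at 285 and 160.

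The share was nearly the same on both plates. It was 48.3% (14 of 29) and 48% (24 of 50) in eLCs, and 7.46% (5 of 67) and 8.33% (3 of 36) in moLCs. Asking for at least 10 reads in a cell gave 37.97% of eLCs and 5.83% of moLCs. Cells with fewer than 2052512 reads were then left out and the rest thinned to that number. This gave 47.8% of 67 eLCs and 7.29% of 96 moLCs, so the shares moved little when depth was made equal. Among the 6522 widely read genes, 8 (0.123%) had a share at least 30 points lower in moLCs in all cells and within both plates. They were Edil3, Gm7666, Hbegf, Myo10, Polg, Rps4l, Timd4 and Wnt9a. The eLCs carry the DTR allele, and the part of that allele in the Hbegf reads was not tested. Polg was chosen for its difference, and of the other mtDNA genes only Dguok and Ssbp1 were widely read. The absence of the remaining mtDNA genes from these 8 is therefore no result.

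**Figure D1:**
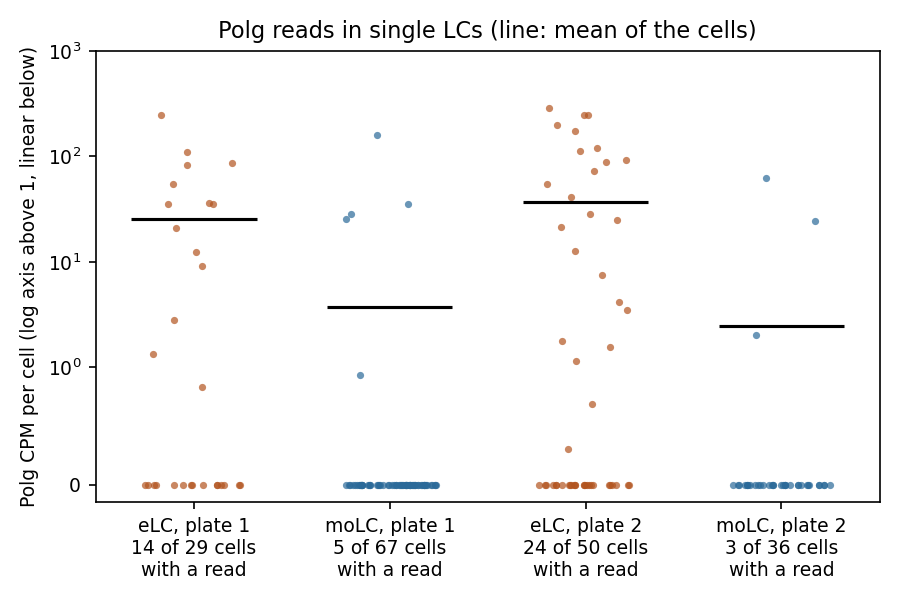
Polg level in each cell in CPM (vertical axis, logarithmic above 1 and linear below) by origin and plate, 1 point per cell, with the mean of the cells as a line. Points above 0 are seen for 14 of 29 and 24 of 50 eLCs but for 5 of 67 and 3 of 36 moLCs, and their heights overlap between origins.

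The summed Polg level was 35.2 CPM in eLCs (34.4 to 36.03) and 2.05 CPM in moLCs (1.89 to 2.22). The log2 ratio was -4.10 (-4.23 to -3.99), with -3.83 on plate 1 and -4.11 on plate 2. It was the lowest ratio among the 79 genes that were lower in moLCs by the rule of size described below, 1.21% of the 6522 genes. With every cell given the same weight the log2 ratio was -3.31, from mean levels of 32.6 and 3.29 CPM per cell. A few cells carried much of each sum. In eLCs 6 cells held 50% of the Polg reads and the highest cell held 10.5%, and in moLCs 3 cells held 50% and the highest 29.3%. Leaving out each cell in turn moved the log2 ratio between -4.59 and -3.97.

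The gene body of Polg overlaps that of Fanci, a DNA repair gene on the opposite strand, over 4034 bases. They share 921 exon bases, 8.57% of the exon bases of Polg, and the Smart-Seq kit does not mark the strand of a read. Fanci had no read in any eLC and 4 reads in 1 moLC, in a cell without a Polg read. Reads assigned to Polg were therefore not accompanied by reads assigned to Fanci.

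The nearest widely read genes to Polg on chromosome 7 did not share its ratio. Of the 10 nearest genes on each side that were widely read, 14 were lower and 6 higher in moLCs, where 60.6% of all widely read genes were lower, with a median log2 ratio of -0.23 and a range of -1.33 to 0.35. None was past the rule of size, where 2.02% of all widely read genes were. These genes reached 6797 kb from Polg towards lower coordinates and 1245 kb towards higher ones. The nearest on each side were Abhd2, at -0.41, and Ap3s2, at -0.25. Zfp710 was the lowest, at -1.33, with -2.34 on plate 1 and -0.35 on plate 2. Idh2, a mitochondrial isocitrate dehydrogenase, was at -0.33, and Mrpl46, a mitochondrial ribosomal protein, at -0.09.

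**Figure D2:**
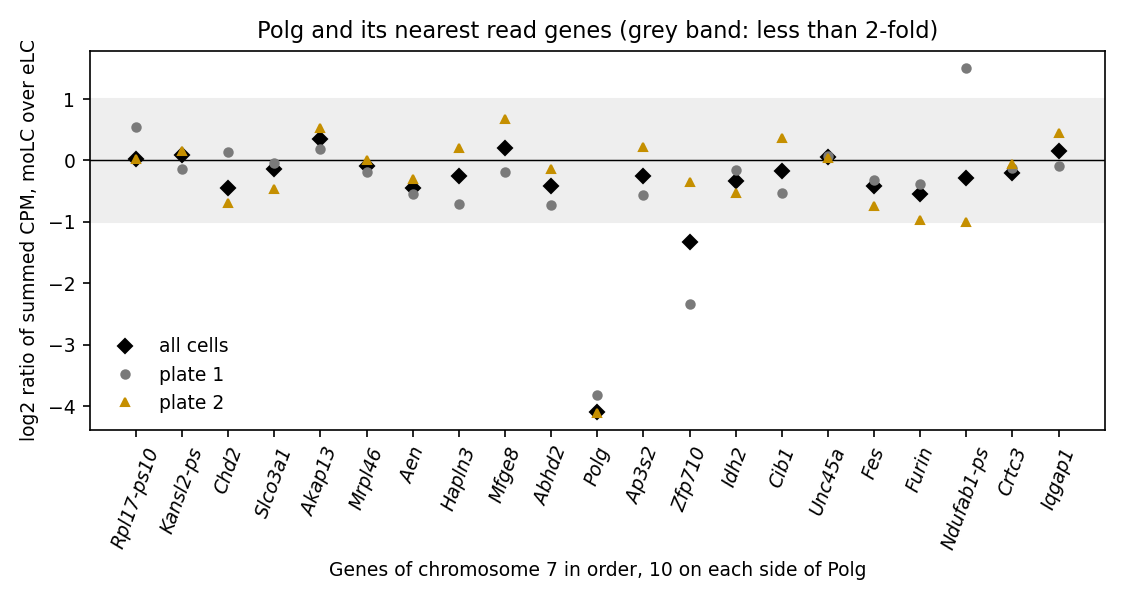
The log2 ratio of summed CPM, moLCs over eLCs (vertical axis), for Polg and the 10 nearest widely read genes on each side in chromosome order, in all cells, plate 1 and plate 2, with a grey band for differences under 2-fold. Polg is at -4.10 in all cells, and the 20 neighbours lie between -1.33 and 0.35.

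Of the 9 genes, 3 (Polg, Dguok and Ssbp1) were widely read. A gene was past the rule of size if it was widely read and if moLCs and eLCs differed 2-fold or more, and the same way, in the pooled cells and on each plate. Polg, chosen for its difference, alone passed. It was 1 of the 9 genes and 1 of the 3 that could pass, being widely read. Of the 6522 widely read genes, 132 (2.02%) passed in either direction. Of these 132 genes, 79 were lower and 53 higher in moLCs, and with TMM factors, which raised every log2 ratio by 0.10, 60 were lower and 72 higher, with Polg still the only one of the 9 to pass. With wide reading set at 50% of cells instead, none of the 9 passed, since Polg was read in 48.1% of eLCs. With 2-fold in all cells as the only criterion beside wide reading, Polg and Dguok passed, against 373 of 6522 genes (5.72%). Over the 9 genes the median log2 ratio was -0.40, with 7 lower and 2 higher in moLCs (Ssbp1, counted as lower at -0.00, was at 0.10 with TMM factors), and 6 of 9 had the same sign on both plates. Of the 6522 widely read genes, a set that holds only 3 of the 9, 3953 (60.6%) were lower in moLCs. The intervals of the shares, taken over cells of 1 sample for each origin, overlapped for 8 of 9 genes and not for Polg, which was chosen for this difference. They did not overlap for 176 of the 6522 widely read genes (2.70%).

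**Figure D3:**
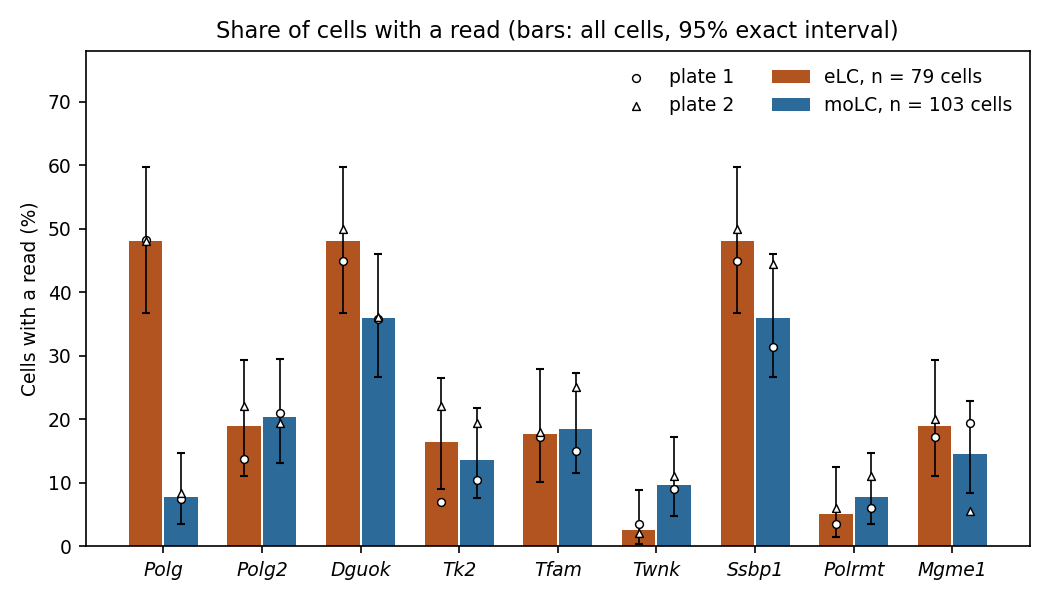
Share of cells with a read (vertical axis, percent) for the 9 mtDNA genes in eLCs and moLCs, with 95% exact intervals on the bars and the values of plate 1 and plate 2 as symbols. Polg, chosen for this difference, is at 48.1% and 7.77%, and the intervals of the other 8 genes overlap between origins, where those of 2.70% of all widely read genes do not.

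Polg2 (chromosome 11, 106768253 to 106779537, minus strand), the partner of Polg in the polymerase, did not share its pattern. It was read in 15 of 79 eLCs (18.99%) and 21 moLCs (20.4%). Counts of the cells with reads ran from 2 over a median of 44 to 416 reads in eLCs and from 2 over 47 to 249 reads in moLCs. The shares and counts overlapped throughout. Summed levels were 7.52 and 5.44 CPM, a log2 ratio of -0.47, but the sign differed between plates, at 1.47 on plate 1 and -1.50 on plate 2. Polg2 shares 132 exon bases with Milr1 on the opposite strand, which was at 20.2 and 27.2 CPM.

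The replication fork genes Twnk and Ssbp1 differed from each other. Twnk (chromosome 19, 45005663 to 45012762, plus strand) was read in 2 of 79 eLCs (2.53%, 0.308 to 8.85), with 111 and 351 reads. It was read in 10 moLCs (9.71%, 4.75 to 17.1), with 86 reads at the lowest, a median of 292 and 912 at the highest. Summed over cells, Twnk was at 2.12 and 10.97 CPM, a log2 ratio of 2.37, with 2.40 on plate 1 and 2.81 on plate 2. The direction was thus opposite to that of Polg, but it rested on few cells: without the eLC with 351 reads the log2 ratio was 4.41, and without the moLC with 912 reads it was 1.92. Twnk shares 507 exon bases, 12.6% of its exon bases, with Mrpl43 on the opposite strand, and their reads cannot be told apart there. Of the 10 moLCs with a Twnk read, 9 had an Mrpl43 read, against 54.4% of all moLCs, and Mrpl43 was at a log2 ratio of -0.63. The part of Mrpl43 in the Twnk values was not tested.

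Ssbp1 (chromosome 6, 40471352 to 40484700, plus strand) was read in 38 of 79 eLCs (48.1%, 36.7 to 59.6), as many as Polg, and in 37 moLCs (35.9%, 26.7 to 45.97). Its counts in these cells ran from 18 over a median of 126 to 384 reads in eLCs and from 10 over 174 to 638 in moLCs. The summed levels were 24.8 CPM in both origins, a log2 ratio of -0.00 (-0.05 to 0.05), with 0.31 on plate 1 and 0.06 on plate 2. A lower share of moLCs with reads went together with a higher median count in those cells.

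Mgme1 (chromosome 2, 144270663 to 144281227, plus strand) was read in 15 of 79 eLCs (18.99%) and 15 moLCs (14.6%). Counts ran from 1 over a median of 13 to 490 reads in eLCs and from 1 over 5 to 678 in moLCs. Many of these counts were small, with fewer than 5 reads in 4 of the 15 eLCs and in 7 of the 15 moLCs. The summed levels were 9.70 and 7.36 CPM, a log2 ratio of -0.40. On plate 1 it was 0.24 and on plate 2 -7.41, where only 2 of 36 moLCs had a read and the highest had 4. Mgme1 shares 206 exon bases with Snx5 on the opposite strand, and of the 7 moLCs with fewer than 5 reads 6 also had a Snx5 read, as had 59.2% of all moLCs. The part of Snx5 in these low counts was not tested.

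For the transcription genes, Polrmt (chromosome 10, 79736123 to 79746581, minus strand) was read in 4 of 79 eLCs (5.06%, 1.40 to 12.5) and 8 moLCs (7.77%, 3.41 to 14.7). In the cells with reads, its level ran from 4.66 over a median of 34.7 to 67.2 CPM in eLCs and from 3.56 over 114 to 184 CPM in moLCs. The median was higher in moLCs, and the ranges overlapped. The summed levels were 1.10 and 8.54 CPM, a log2 ratio of 2.95, with 2.32 on plate 1 and 3.70 on plate 2. Without the eLC with the most reads it was 3.74, and without the moLC with the most, 548 reads, it was 2.63. The ratio also moved with the weight of the cells: it was 2.11 with equal weight for each cell and 4.92 with cells thinned to equal depth. With a read in so few cells, Polrmt and Twnk were not widely read and could not pass the rule of size.

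Tfam (chromosome 10, 71225464 to 71238280, minus strand) was read in 14 of 79 eLCs (17.7%) and 19 moLCs (18.4%). The counts ran from 8 over a median of 206 to 570 reads in eLCs and from 2 over 152 to 532 in moLCs. The sums gave 13.03 and 10.6 CPM, a log2 ratio of -0.30, with -0.24 on plate 1 and -0.16 on plate 2. The median of all widely read genes was at -0.10. Without the eLC with 570 reads the ratio of Tfam was 0.01.

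The nucleoside kinases were both lower in moLCs in all cells. Dguok (chromosome 6, 83480217 to 83506969, minus strand) was read in 38 of 79 eLCs (48.1%, 36.7 to 59.6), with 54 reads at the lowest, a median of 248 and 1216 at the highest. It was read in 37 moLCs (35.9%, 26.7 to 45.97), with 2, 218 and 965 reads. The counts of cells with reads overlapped over nearly their whole range. Dguok summed to 63.6 and 31.8 CPM, a log2 ratio of -1.001 (-1.04 to -0.96), with -0.48 on plate 1 and -1.07 on plate 2, so the difference was under 2-fold on plate 1. With TMM factors it was -0.90 in all cells, also under 2-fold. Dguok lies 164 kb from Cd207, the locus that carries the DTR insert in the host cells. The part of that allele in the Dguok values was not tested.

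Tk2 (chromosome 8, 104226685 to 104248558, minus strand) was read in 13 of 79 eLCs (16.5%) and 14 moLCs (13.6%). The counts ran from 4 over a median of 220 to 684 reads in eLCs and from 2 over 188.5 to 492 in moLCs. The summed levels were 14.6 and 10.2 CPM, a log2 ratio of -0.51, and the sign differed between plates, at 0.44 on plate 1 and -0.62 on plate 2.

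**Figure D4:**
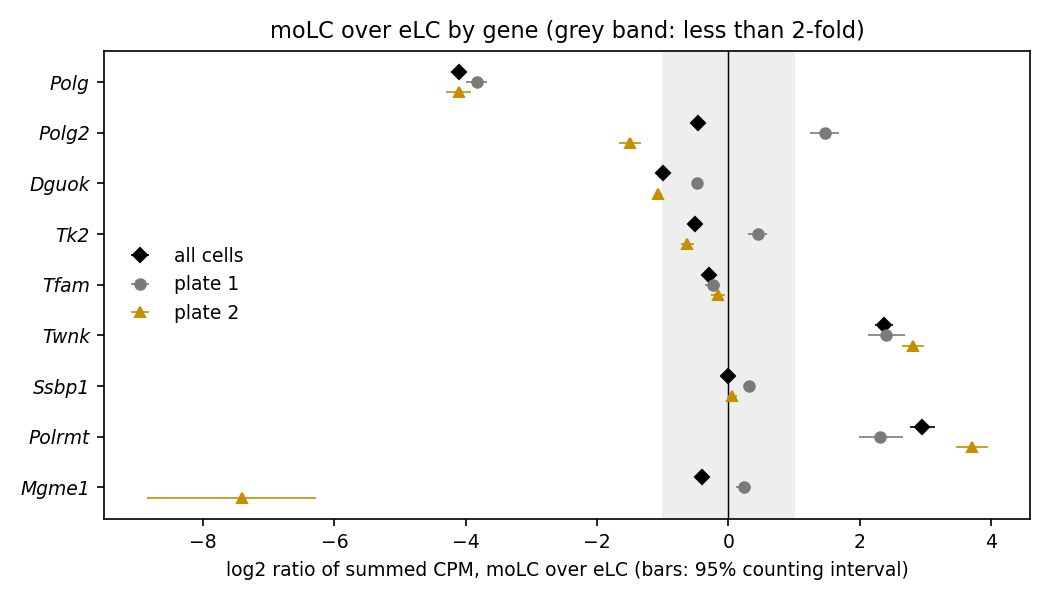
The log2 ratio of summed CPM, moLCs over eLCs (horizontal axis), for the 9 mtDNA genes in all cells, plate 1 and plate 2, with 95% counting intervals and a grey band for differences under 2-fold. Polg lies near -4 on both plates, Twnk and Polrmt lie above 2 on both, and Polg2, Tk2 and Mgme1 change sign between plates.

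Levels per kilobase used the length of all annotated exons of a gene merged, from 3.35 kb for Mgme1 over 8.36 kb for Ssbp1 to 10.7 kb for Polg. The order depends on these lengths, and the transcripts present in the cells were not determined. Per kilobase of merged exon, Dguok had the highest level in both origins, at 13.8 CPM per kb in eLCs and 6.89 in moLCs. In eLCs it was followed by Tk2 (4.08 CPM per kb), Polg (3.28), Ssbp1 (2.96), Tfam (2.94), Mgme1 (2.90), Polg2 (1.73), Twnk (0.529) and Polrmt (0.235). The ranges of the 2 plates overlapped between neighbours in this order from Tk2 to Mgme1 and between Polg2 and Twnk. In moLCs the order was Dguok, Ssbp1 (2.96), Tk2 (2.85), Twnk (2.73), Tfam (2.38), Mgme1 (2.20), Polrmt (1.82), Polg2 (1.25) and Polg (0.191). There, the plates of neighbours overlapped from Ssbp1 to Polg2. In the pooled cells Polg thus stood behind Dguok and Tk2 in eLCs and last in moLCs. The order differed within plates. On plate 1, Polg in eLCs was above Tk2 (1.78) and behind Mgme1 (2.85) and Tfam (2.49), and on plate 2, Mgme1 in moLCs (0.0172) was below Polg. On the plates, Polg was at 2.47 and 3.83 CPM per kb in eLCs and at 0.174 and 0.222 in moLCs.

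Most cells had reads of few of the 9 genes. The median was 2 genes in eLCs, with 9 cells at none and a highest of 7. In moLCs it was 1 gene, with 18 cells at none and a highest of 6. Without Polg the mean was 1.76 genes in eLCs and 1.56 in moLCs. The median number of all genes read per cell was 4488 in eLCs and 4026 in moLCs, and the part of this difference in the shares was not tested.

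Cells with a Polg read had reads of more of the other 8 genes. In eLCs the mean was 2.18 in the 38 cells with a Polg read and 1.37 in the 41 without. In moLCs it was 2.25 in the 8 cells with and 1.51 in the 95 without. In pooled plates, cells with a Polg read also had more genes read, at a median of 4640.5 against 4211 in eLCs and 4200.5 against 4026 in moLCs. In moLCs the order differed between plates, at 3974 against 4107 on plate 1 and 4482 against 3975 on plate 2. The median of reads per cell was 2.94e+06 with and 2.58e+06 without a Polg read in eLCs, and 2.93e+06 and 2.96e+06 in moLCs. The part of genes and reads per cell in the co-occurrence was not tested. Cd207 did not separate eLCs with and without a Polg read: its median was 1416 CPM with and 1448 CPM without.

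The genes whose levels across cells were most like that of Polg were Pcmtd2, Svbp, Exosc5, Scn3a and Rnf170. Their Spearman correlation with Polg, averaged over the 4 groups of origin and plate, was 0.36, 0.35, 0.33, 0.32 and 0.31. All these averages are across cells of the same libraries and are weak, and in moLCs they rest on the 8 cells with a Polg read. They are the highest of 6521 genes, whose median average was 0.02 and 99th percentile 0.22. The groups differed: for Pcmtd2 the correlation was 0.05 in moLCs of plate 1 and 0.83 in moLCs of plate 2. Only 3 of the 36 moLCs of plate 2 had a Polg read. The search covered widely read genes only. Of the other mtDNA genes, Dguok and Ssbp1 alone were widely read, and neither was among the genes named above. The remaining mtDNA genes could not appear in this ranking, so their absence is no result.

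Reads of the mitochondrial genome itself were examined next. The share of reads on mt- genes had a median of 1.13% in eLCs (0.339 to 3.89) and 0.976% in moLCs (0.353 to 3.39). The order of the origins differed between plates. On plate 1 the medians were 0.815% in eLCs and 0.914% in moLCs, and on plate 2 they were 1.46% and 1.20%. Of the 13 mt- protein genes, 12 were widely read, and their median log2 ratio was -0.19, with 0.20 on plate 1 and -0.31 on plate 2. None was past the rule of size, where 2.02% of all widely read genes were. mt-Co1, a subunit of cytochrome c oxidase, had a log2 ratio of -0.22, from 5164 CPM in eLCs to 4444 in moLCs. The rRNA genes mt-Rnr1 and mt-Rnr2 were at -0.41 and -0.23.

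The relation of the mtDNA genes to the share of mt- reads was described across cells. For Polg, Spearman's rho was -0.06 across 79 eLCs, with -0.04 on plate 1 and -0.11 on plate 2, and 0.03 across moLCs, with -0.04 and 0.20. Over the 9 genes and both origins rho in pooled plates ran from -0.19 (Polrmt in moLCs) to 0.12 (Tk2 in eLCs). Within plates it reached -0.34 for Polrmt and 0.34 for Mgme1 in moLCs of plate 2, and -0.29 both for Tfam in moLCs and for Polrmt in eLCs of plate 1, genes read in few of these cells. Over genes read in 25% or more of the cells of the same origin, the central 95% of rho in pooled plates was -0.36 to 0.36 over 6268 genes in eLCs and -0.27 to 0.29 over 5785 genes in moLCs. All values come from the same cells and share their depth. The median share of mt- reads was 1.03% in eLCs with and 1.17% in eLCs without a Polg read, and 0.954% and 0.977% in moLCs. The ranges overlapped. With and without a Polg read they were 0.339 to 3.75% and 0.429 to 3.89% in eLCs. In moLCs they were 0.353 to 2.65% and 0.550 to 3.39%.

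**Figure D5:**
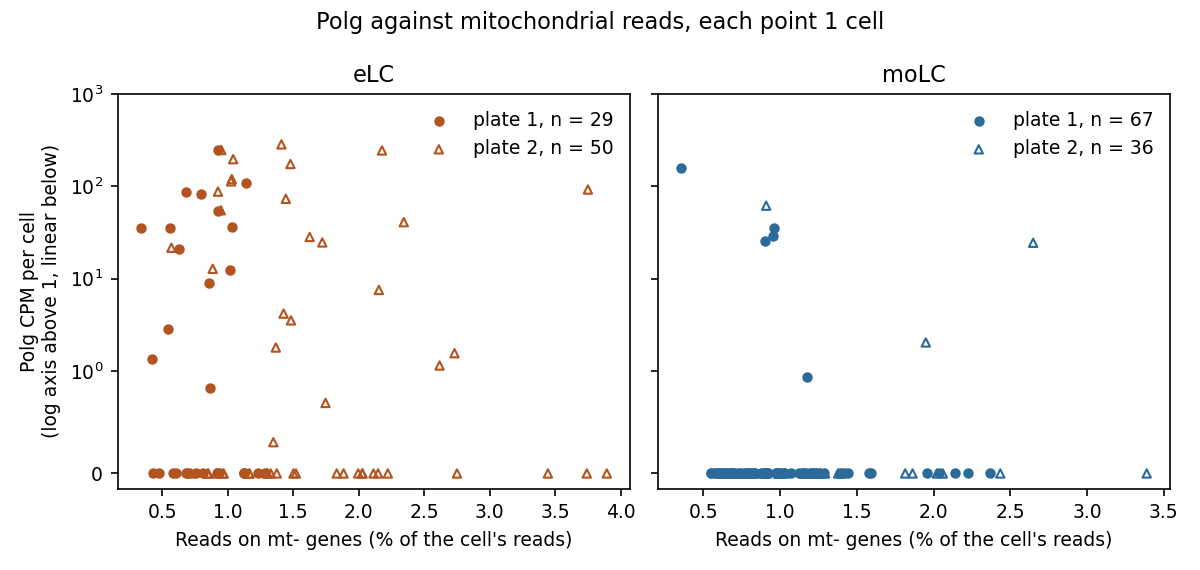
Polg level in CPM (vertical axis, logarithmic above 1 and linear below) against the share of reads on mt- genes in percent (horizontal axis), 1 point per cell, for eLCs and moLCs, with the plates as filled and open symbols. Cells with and without Polg reads overlap in their mt- shares, and rho was -0.06 in eLCs and 0.03 in moLCs.

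Further genes of the mitochondrial genome's upkeep gave no list in which members passed the rule of size. Of all widely read genes 2.02% passed, so none in lists this short is no result about them. Of 15 other replication, repair and nucleoid genes, 7 were widely read, 3 were lower and 4 higher in moLCs, and their median log2 ratio was 0.03. Of 14 genes for mitochondrial transcription and its nuclear regulators, 4 were widely read, with a median of -0.31. Of 20 genes for nucleotide supply and mtDNA depletion, 11 were widely read, 8 lower and 3 higher, with a median of -0.33. Of 11 genes for mitochondrial RNA processing and decay, 7 were widely read, with a median of 0.14. Of 14 other DNA polymerase genes 1, Polb, was widely read, at -0.27. The median over all 6522 widely read genes was -0.10, and 60.6% of them were lower in moLCs.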

How the data were processed

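The 185 cells were grouped by labelled origin (106 moLCs and 79 eLCs) and by plate. The labels give the plate and well of a cell, and not whether the plates differ in animals or day of sorting. The authors aligned paired-end Smart-Seq reads to mm10 with STAR, and the authors deposited raw read counts per gene without normalization. The counting tool and annotation are not given in the sources used here. In 8 of the deposited columns, 9 values are not whole, and these columns were taken to hold estimated or expected counts and were rounded. No molecular identifiers were used.

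As in the methods of the study, cells with more than 5% of reads on the 37 mt- genes were left out. Counts were summed by origin and divided by all reads of the origin to give CPM. An origin at 0 reads was set to 3 reads. Each origin is 1 sample, since no animal is named, so no test was made, and the Wilcoxon test on single cells was not repeated. Intervals are exact (Poisson, Clopper-Pearson, binomial). The rule of size is given in the text. No doublet caller was run on these singly sorted cells. Exon lengths and coordinates are from GENCODE M21 (GRCm38, the build mm10), in which 45495 of the gene names were found.

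The text names all 9 members, list genes past the rule of size, the 10 nearest read genes on each side of Polg and the 5 most like it, apart from genes said to be chosen otherwise. Members and lists were chosen with earlier results of these data known. Alternatives were each plate, other filters, equal weights, TMM factors, thinning, other totals, other thresholds and each cell left out. The scripts were tested on simulated data. Python 3.11.15, numpy 2.4.6, pandas 2.3.3, scipy 1.17.1, matplotlib 3.10.9, R 4.3.3 and edgeR 4.0.16 (TMM factors on summed counts) were used.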

Additional observations from a re-analysis of the deposited data

How the results depend on the processing

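The log2 ratio of Polg stayed negative under all alternatives. It was -3.83 on plate 1 alone, -4.28 with a mitochondrial filter at 2.5%, -3.31 with equal weight for each cell and -4.23 with cells thinned to equal depth, and leaving out each cell in turn gave -4.59 to -3.97. The share of cells with a Polg read moved by less than its interval under all 6 settings tried in each origin. Its correlation with the mt- share in eLCs ran from -0.11 to -0.03 over the settings tried, and in moLCs, where only the plates were compared, it was -0.04 and 0.20. The number of the 9 genes past the rule of size was 0 with 50% of cells as the share and 2 in pooled cells only, and 1 under the other 6 settings. TMM factors moved every log2 ratio up by 0.10. For the other 8 genes, 93 alternative log2 ratios kept their sign and 11, in 5 genes, did not. On plate 1 alone these were Polg2 (1.47), Tk2 (0.44), Ssbp1 (0.31) and Mgme1 (0.24). With a filter at 2.5% they were Polg2 (0.19) and Ssbp1 (0.18), and with 1 cell left out Tfam (0.01) and Ssbp1 (0.08). Ssbp1, at -0.00 in all cells, also had 0.06 on plate 2 alone, 0.10 with TMM factors and 0.07 with totals that left out the 50 most counted genes. Polrmt kept its sign but went from 2.95 to 4.92 when thinned and to 2.11 with equal weights. The cause of these changes was not tested. No paired analysis was possible because each origin is 1 sample and the results come from no test.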

Other observations

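Among the listed genes, 3 chosen after their values were seen came close to the rule of size. Phb, a prohibitin of the inner mitochondrial membrane, was read in 74.7% of eLCs and 41.7% of moLCs and had a log2 ratio of -0.997 in all cells, -0.996 on plate 1 and -1.09 on plate 2. Elac2, which trims the 3′ ends of tRNA precursors, was read in 29.1% and 15.5% of cells and was at -1.10, with -0.97 and -1.26 on the plates. Dck, the cytosolic deoxycytidine kinase, was read in 43.04% and 21.4% and was at -1.003, with -0.49 and -1.60. These values were not tested.

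The 3 cells left out for their mt- reads, all moLCs, had no read of 8 of the 9 mtDNA genes and 2 reads of Tfam in 1 cell.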
